A study of Mus musculus with 2 samples.

Results

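The transcripts of 6 matrix metalloproteinase (MMP) genes, Mmp2, Mmp3, Mmp9, Mmp13, Mmp14 and Mmp19, and of 3 genes for tissue inhibitors of metalloproteinases (TIMPs), Timp1, Timp2 and Timp3, were counted by cell class in healing fracture callus. These 9 genes were picked by symbol out of the 32285 genes of each count table, and each was kept whatever its level. The tissue came from wild-type C57BL/6J mice with a femoral fracture, and the study states that its animal experiments used 12-week-old males. Its design held calluses of 5 mice at 10 days and of 5 mice at 20 days after fracture. The labels of the 2 libraries of single-cell RNA sequencing (scRNA-seq), MGJ and MGJ2, give neither of them a day, and mice within a library cannot be told apart. Each library was therefore treated as 1 sample without a group, values were set side by side, and no test between samples was possible.

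MMPs are zinc-dependent enzymes that cut the proteins of the extracellular matrix, and TIMPs bind their active sites and block them. In endochondral repair, the cartilage of the soft callus is cut away and replaced by bone, with hypertrophic chondrocytes at the border and osteoclasts, which resorb mineralized tissue, following behind. Mmp13 is the main collagenase of cartilage, Mmp3 is a stromelysin that cuts many matrix proteins and activates other MMPs, and Mmp2 and Mmp9 are gelatinases. Mmp14 is anchored in the cell membrane, cuts collagen there and activates the proenzyme of Mmp2 together with Timp2, and Mmp19 is a secreted MMP of broad range. Timp1 and Timp2 are soluble, whereas Timp3 is bound to the matrix.

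After removal of poor barcodes and doublets, 12947 cells with 125556925 UMIs (unique molecular identifiers, 1 for each captured RNA molecule) were kept in MGJ, and 7568 cells with 57802511 UMIs in MGJ2. Cells were clustered without the 9 genes and named from marker genes that did not include them, so names end in "-like". Classes of at least 50 cells numbered 17 in MGJ and 13 in MGJ2, and 11 of them were found in both. Chondrocyte-like cells numbered 2364 and 124, with 12 of 12 markers detected in each library, and osteoclast-like cells numbered 100 and 60, with 7 of 8 markers. Of the classes named in MGJ, osteoblast-, macrophage-, pericyte- and erythroid cell-like cells numbered fewer than 50 in MGJ2. No fibroblast-like cells were found there at the main clustering setting. The 50 cells of MGJ2 in the tenocyte cluster had too few of that class's markers to be named. Monocyte-like cells joined 2 clusters, led by the gene Arg1 (1207 cells of MGJ and 25 of MGJ2) and by E230029C05Rik (66 and 1442 cells). Values of this class in the 2 libraries thus come largely from different clusters. Orders of levels cover only classes of at least 50 named cells. Levels are given in CPM, the summed UMIs of a gene scaled to 1000000 UMIs of its class, with exact Poisson 95% intervals that cover counting error only.

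Free RNA in the droplets set the lower limit. UMIs of Col2a1, which encodes cartilage collagen, turned up in 88.2% (MGJ) and 24.3% (MGJ2) of the cells outside the chondrocyte classes. B cell- and pre-B cell-like cells together (163 and 728 cells), which should lack these enzymes, served as a low reference. Col2a1 stood at 9.43% of its chondrocyte level in tenocyte-like cells and at 28.0% in osteoblast-like cells of MGJ, against at most 1.31% in the other classes, and its part in the levels of these 2 classes was not tested. The 2 libraries shared 19 cell barcodes.

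Mmp13 and Mmp3 lie close together on chromosome 9 (GRCm38), Mmp13 (ENSMUSG00000050578) at chr9:7272514-7283331 and Mmp3 (ENSMUSG00000043613) at chr9:7445822-7455975, both on the plus strand. Promoter sequence, from 250 bases before to 50 after the transcript start in RefSeq on GRCm38.p6, was at hand for 6 of the 9 genes. It was searched for TGANTCA, with any base at N, a motif that includes TGACTCA and TGAGTCA, the sites of AP-1 transcription factors. This motif is its own reverse complement, so a match covers both strands. Of the 6 promoters, those of Mmp3 and Mmp13 held a match, 46 and 35 bases before the start, against 7.81% of 32851 promoters of the same length. That share counts any base at N and is not the share of promoters with an AP-1 site. They are shown because these 2 genes had their highest skeletal levels in the same sub-cluster, described below. The first sequence spans chr9:7272264-7272563 and the second chr9:7445572-7445871, both on the plus strand, with the match in capitals.
Mmp13: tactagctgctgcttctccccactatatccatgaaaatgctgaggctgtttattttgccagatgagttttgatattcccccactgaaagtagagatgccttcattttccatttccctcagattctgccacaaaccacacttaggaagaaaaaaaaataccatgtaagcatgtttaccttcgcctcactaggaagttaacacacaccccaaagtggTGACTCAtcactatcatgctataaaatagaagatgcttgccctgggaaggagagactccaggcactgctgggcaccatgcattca
Mmp3: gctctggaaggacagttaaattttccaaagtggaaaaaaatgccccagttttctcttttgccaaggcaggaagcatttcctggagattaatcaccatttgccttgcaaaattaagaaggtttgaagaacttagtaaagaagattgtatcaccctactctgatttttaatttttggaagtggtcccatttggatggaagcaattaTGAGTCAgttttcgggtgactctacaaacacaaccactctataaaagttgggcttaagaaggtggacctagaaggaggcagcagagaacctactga

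**Figure D1:**
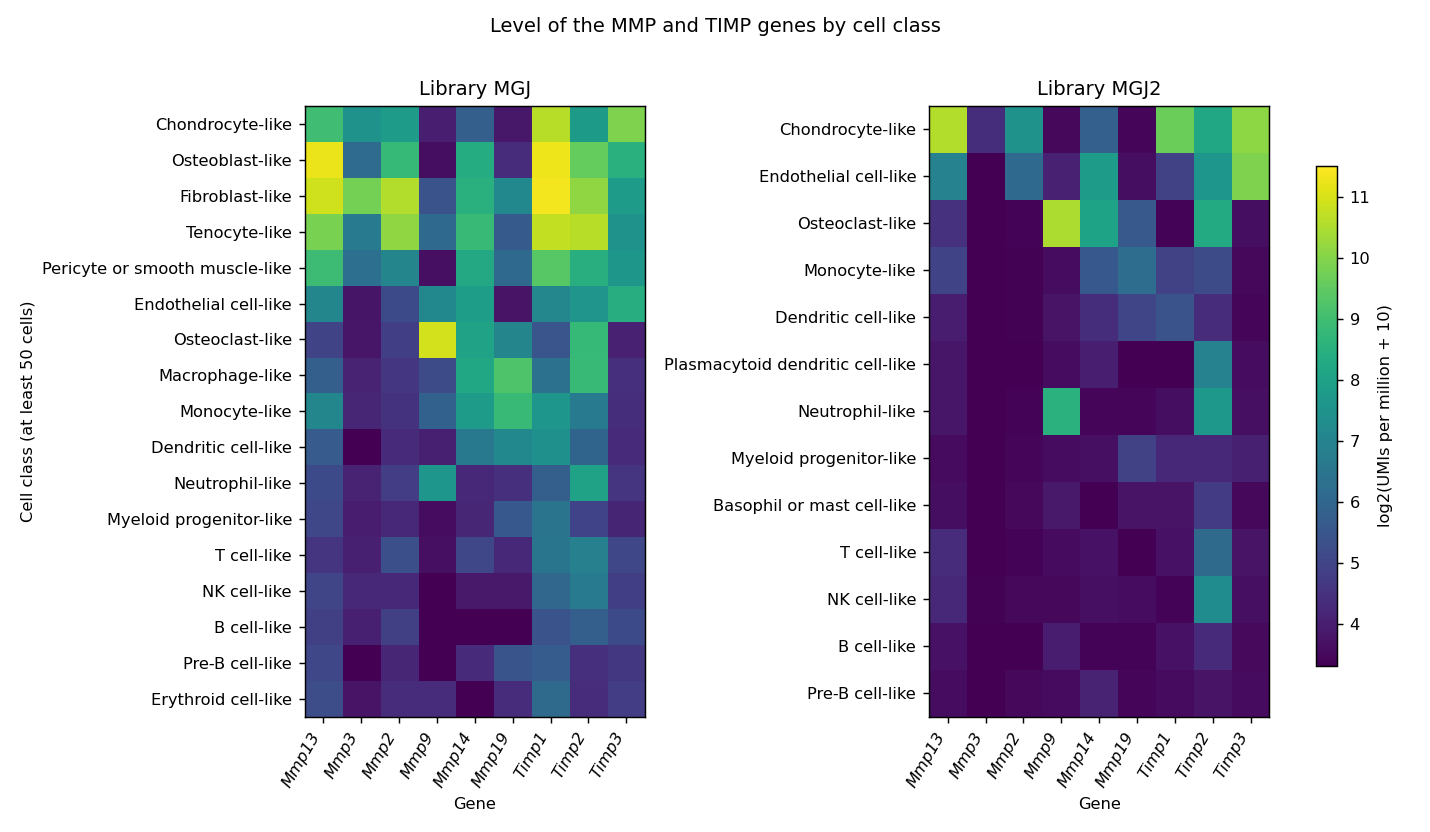
Level of each gene, as log2(CPM + 10), in each cell class of at least 50 cells, in MGJ (left) and MGJ2 (right); rows are classes, columns are genes, and brighter cells are higher. In MGJ the bright block of Mmp13, Mmp2, Timp1 and Timp2 covers osteoblast-, fibroblast- and tenocyte-like cells, Mmp9 is brightest in osteoclast-like cells (1944 and 1437 CPM), and Timp3 in chondrocyte-like cells (959 and 1089 CPM).

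Mmp13 was a transcript of the skeletal and stromal classes. It reached 2441 CPM in osteoblast-like, 1926 CPM in fibroblast-like, 922 CPM in tenocyte-like and 500.4 CPM in chondrocyte-like cells of MGJ, and the intervals of each of these neighbours in the order were apart. Pericyte- or smooth muscle-like cells followed at 477 CPM, not apart from chondrocyte-like cells, and the low reference stood at 22.7 CPM. By sheer number, chondrocyte-like cells still gave 36.7% of the 69166 Mmp13 UMIs of this library, fibroblast-like cells 26.6% and tenocyte-like cells 22.1%. In MGJ2 the level was 1498 CPM in chondrocyte-like cells, which gave 52.5% of 10596 UMIs, and 2.65 CPM in the low reference. Next among the classes of at least 50 cells there were endothelial cell-like cells at 113 CPM, where 48 of 49 UMIs lay in 1 cell. The 380 unnamed cells of MGJ2, among them those of the tenocyte cluster, held 1127 CPM and 21.5% of the UMIs.

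Expression of Mmp13 was uneven from cell to cell. The 10% of chondrocyte-like cells with the most Mmp13 UMIs held 91.1% of them in MGJ and 79.1% in MGJ2, and 56.1% and 52.4% of the cells had none. In fibroblast-like cells of MGJ the top 10% held 59.3%, and in tenocyte-like cells 83.3%, with 1070 of 15276 UMIs in 1 cell. Timp1 was spread far more evenly over the chondrocyte-like cells of MGJ, with 31.6% of its UMIs in the top 10% and none in 3.21% of the cells.

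Mmp3 was highest in fibroblast-like cells of MGJ, at 871 CPM, followed by chondrocyte-like cells at 174 CPM and tenocyte-like cells at 95 CPM. All 3 were apart from their neighbours in the order, and the low reference stood at 1.33 CPM. Fibroblast-like and chondrocyte-like cells gave 42.0% and 44.7% of 19815 UMIs. Library MGJ2 held 43 Mmp3 UMIs in all, 40 of them in chondrocyte-like cells (10.8 CPM, interval 7.70 to 14.7) and those 40 in 2 cells. No fibroblast-like cells were found there at the main clustering setting, so the level in the highest class of MGJ was not available for MGJ2. At a clustering resolution of 0.5, 41 cells of MGJ2 took that name. With each cell named by its highest marker score, 22 did.

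The gelatinases Mmp2 and Mmp9 took different places. Mmp2 (ENSMUSG00000031740, chr8:92827291-92853420, plus strand) was highest in fibroblast-like cells of MGJ at 1510 CPM (interval 1486 to 1535), followed by tenocyte-like cells at 1120 CPM, osteoblast-like cells at 436 CPM and chondrocyte-like cells at 217 CPM. It was evenly spread there, since each of the 550 fibroblast-like cells had an Mmp2 UMI and the top 10% of cells held 21.9% of them, the lowest share among the members and classes for which it was computed. MGJ2 held 170 CPM in chondrocyte-like cells and 60.02 CPM in endothelial cell-like cells, and the other classes of at least 50 cells lay at or below 1.35 CPM. The 380 unnamed cells there held 191 CPM and 28.0% of the Mmp2 UMIs of this library.

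Among the classes of at least 50 cells, Mmp9 (ENSMUSG00000017737, chr2:164940780-164955850, plus strand) was highest in blood-derived cells. The smaller marrow stromal cell-like class of MGJ2, described below, had a level near that of osteoclast-like cells. Osteoclast-like cells were highest among the classes of at least 50 cells in each library, at 1944 CPM (interval 1888 to 2001) and 1437 CPM (interval 1386 to 1490), and neutrophil-like cells followed at 188 and 367 CPM. In the low reference no Mmp9 UMI was counted in MGJ, and the level was 3.62 CPM in MGJ2. Because neutrophil-like cells were far more numerous, they gave 54.0% of the 7735 Mmp9 UMIs of MGJ2, ahead of the 38.5% from osteoclast-like cells, whereas in MGJ osteoclast-like cells gave 48.9% and neutrophil-like cells 17.4% of 9434. Levels in the next classes of MGJ rested on few cells. Endothelial cell-like cells stood at 131 CPM with 306 of 312 UMIs in 1 cell, and tenocyte-like cells at 59.8 CPM with 550 of 991 UMIs in 1 cell.

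Mmp14 (ENSMUSG00000000957, chr14:54431612-54445364, plus strand) was found at like levels in many classes of MGJ. Its level lay between 214 and 454 CPM in 8 classes, from tenocyte-like (454 CPM) and fibroblast-like cells (357 CPM) through osteoblast-, pericyte-, macrophage-, osteoclast- and endothelial cell-like cells to monocyte-like cells (214 CPM). Chondrocyte-like cells stood well below them at 45.8 CPM, and neutrophil-like cells at 8.82 CPM were close to the low reference at 8.01 CPM. Among the classes of at least 50 cells in MGJ2, osteoclast-like (257 CPM) and endothelial cell-like cells (212 CPM) were highest and not apart from each other, with chondrocyte-like cells at 47.1 CPM.

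Mmp19 (ENSMUSG00000025355, chr10:128790910-128800824, plus strand) belonged to the macrophage side. Macrophage-like cells of MGJ held 597 CPM and monocyte-like cells 456 CPM, and together they gave most of its 12140 UMIs, 43.0% and 32.7%. Dendritic cell-, fibroblast- and osteoclast-like cells followed at 132, 132 and 121 CPM and were not apart from each other. The low reference stood at 26.7 CPM in MGJ, with all 20 UMIs in pre-B cell-like cells, and at 0.723 CPM in MGJ2. In MGJ2 monocyte-like cells, largely of another cluster than in MGJ, held 65.5 CPM with 66.0% of 1341 UMIs, and osteoclast-like cells 38.6 CPM. The 27 macrophage-like cells there held 315 CPM (interval 258 to 381). Mmp19 overlaps Gm47093 and Tmem198b on the other strand, and whether counting used the strand was not given in the sources used here, so reads shared with them cannot be told apart.

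The 3 inhibitors divided the classes in another way. Timp1 (ENSMUSG00000001131, chrX:20870166-20874735, plus strand) followed the skeletal and stromal classes, with 2623 CPM in fibroblast-like, 2505 CPM in osteoblast-like, 1718 CPM in tenocyte-like and 1556 CPM in chondrocyte-like cells of MGJ. In MGJ2 chondrocyte-like cells stood at 795 CPM, and the next class of at least 50 cells, dendritic cell-like cells, at 32.9 CPM. Unnamed cells of MGJ2 held 232 CPM. Chondrocyte-like cells gave 53.4% and 67.1% of all Timp1 UMIs.

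Timp2 (ENSMUSG00000017466, chr11:118301069-118355740, minus strand) was found in the largest number of classes. It lay above the low reference in 13 of 17 classes of MGJ and 9 of 13 of MGJ2, more than any other member. Tenocyte-like cells (1581 CPM) and fibroblast-like cells (1119 CPM) led in MGJ, and osteoclast-like (311 CPM) and chondrocyte-like cells (292 CPM) led among the classes of at least 50 cells in MGJ2 and were not apart. Among blood cells, neutrophil-like cells held 253 and 198 CPM, and natural killer (NK) cell-like cells of MGJ2 146 CPM, against 18.7 and 6.27 CPM in the low reference.

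Timp3 (ENSMUSG00000020044, chr10:86300372-86349506, plus strand) was highest in chondrocyte-like cells of each library, although in MGJ Timp1 was higher in these cells, at 1556 CPM. Chondrocyte-like cells held 959 CPM (interval 950.2 to 967) in MGJ and 1089 CPM (interval 1056 to 1123) in MGJ2, and gave 79.8% and 75.9% of its UMIs. Endothelial cell-like cells stood at 331 CPM in MGJ, not apart from osteoblast-like cells at 354 CPM, and at 949 CPM in MGJ2. In the 50 endothelial cell-like cells of MGJ2, 53.0% of the 411 Timp3 UMIs lay in 5 cells. Col2a1 was at 0.0739% of its chondrocyte level there, and the part of free RNA in the Timp3 level was not tested. Timp1 and Timp3 overlap Syn1 and Syn3 on the opposite strand, and Timp2 overlaps Cep295nl on its own strand, so reads from these partners cannot be told apart either.

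Smaller classes of MGJ2 gave levels from few cells. The 14 osteoblast-like cells held 2831 CPM of Mmp13, 1007 CPM of Timp1 (interval 913 to 1108), 579 CPM of Timp2, 483 CPM of Mmp2 and 342 CPM of Mmp14, and thus stood above chondrocyte-like cells for all 5. The 27 macrophage-like cells held 366 CPM of Timp2 (interval 304 to 436) and 264 CPM of Mmp14. In the 9 pericyte- or smooth muscle-like cells, Mmp14 stood at 640 CPM (interval 508 to 796), above osteoclast-like cells. Mmp13 stood at 7.90 CPM there, from 1 UMI, against 477 CPM in this class of MGJ. The 19 marrow stromal cell-like cells held 5002 CPM of Mmp13, 1556 CPM of Mmp9 (interval 1390 to 1737) and 717 CPM of Mmp14. Osteoclast-like cells of MGJ2 were lower for Mmp13 (12.6 CPM) and Mmp14 (257 CPM), and for Mmp9 the intervals overlapped. How the UMIs were spread over the 19 cells is not given here.

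To ask how the enzymes of cartilage differ from the rest of the callus, chondrocyte-like cells were set against all other cells of their library. A gene was called at a ratio of at least 2-fold with at least 50 UMIs in both sets together. In MGJ, Timp3 was called higher, 1 of 9 members, where 12.7% of 14641 genes were, and Mmp2, Mmp9, Mmp14, Mmp19 and Timp2 were called lower, 5 of 9, where 26.1% of genes were. In MGJ2, 5 of 8 members with enough UMIs were called higher (Mmp2, Mmp13, Timp1, Timp2 and Timp3), where 19.7% of 13056 genes were, and Mmp9 and Mmp19 lower, 2 of 8, where 33.2% were. Against all genes, members were called more often as lower in MGJ and as higher in MGJ2, and their remaining shares were near or below those of all genes. The median log2 ratio of the members with enough UMIs was -1.14 and 2.61, against -0.21 and -0.36 over all genes.

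Timp3 stood at 959 CPM in chondrocyte-like cells against 165 CPM elsewhere in MGJ, and at 1089 against 23.7 CPM in MGJ2, ratios of 5.81 (interval 5.70 to 5.93) and 46.0 (43.2 to 49.0). Mmp13 stood at 500.4 against 585 CPM in MGJ, a ratio of 0.855, and at 1498 against 93.1 CPM in MGJ2, a ratio of 16.1. The remaining cells differed between the libraries, since in MGJ they included the fibroblast-, tenocyte- and osteoblast-like cells with 922 to 2441 CPM of Mmp13. With every cell weighted equally, 4 members were called higher in MGJ, namely Timp3 (ratio 10.9), Timp1 (3.85), Mmp3 (2.69) and Mmp13 (2.30), and 3 lower.

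The cartilage that is replaced by bone is hypertrophic, and hypertrophic-like cells, the sub-cluster led by Col10a1, the collagen gene of that stage, were therefore set against the other chondrocyte-like cells. They numbered 592 of 2364 cells in MGJ and 83 of 124 in MGJ2, and 6 of 6 hypertrophic markers were detected in the sub-cluster. In MGJ, 3 of 9 members were called higher (Mmp9, Mmp13 and Timp3), where 7.66% of 12138 genes were, and 2 of 9 lower (Mmp2 and Mmp3), where 9.33% were. In MGJ2, 2 of 6 members were called higher (Mmp13 and Timp3), where 8.88% of 6241 genes were, and 2 of 6 lower (Mmp2 and Mmp14), where 6.17% were. In each library and direction the share of members called was above that of all genes, with few members counted. The median log2 ratio of the members with enough UMIs was -0.34 and 0.30, against -0.03 and 0.02 over all genes.

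Mmp13, the collagenase, and Timp3, an inhibitor, were thus high in the same sub-cluster. For Mmp13 the levels were 1312 CPM (hypertrophic-like) and 242 CPM (others) in MGJ, and 2271 CPM (5553 UMIs) and 6.31 CPM (8 UMIs) in MGJ2. The ratios were 5.42 (interval 5.29 to 5.56) and 360 (182 to 834). Timp3 stood at 2140 and 582 CPM in MGJ and at 1409 and 471 CPM in MGJ2, ratios of 3.67 (3.61 to 3.74) and 2.99 (2.74 to 3.27).

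The genes that were lower ran together in both libraries for Mmp2. Its level was 103 against 253 CPM in MGJ and 108 against 289 CPM in MGJ2, ratios of 0.409 (interval 0.385 to 0.433) and 0.374 (0.318 to 0.439). Mmp3 stood at 18.1 against 224 CPM in MGJ, a ratio of 0.0808, and in MGJ2 at 0 UMIs, which allows up to 1.23 CPM, against 40 UMIs, too few to be called. Timp1 was not called in either library, at 991 against 1736 CPM and at 853 against 684 CPM. Mmp9 stood at 13.9 against 3.43 CPM in MGJ, from 170 and 132 UMIs. It had no UMI in 92.7% of the hypertrophic-like and 95.5% of the other cells, and 1 hypertrophic-like cell held 42 of the 170. S100a8, a marker of neutrophils, was at 117 and 139.5 CPM in the same cells, and the part of free RNA in these Mmp9 levels was not tested.

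The size of these ratios depended on how the cells were divided. The ratio of Mmp13 ranged from 1.63, when each cell took its name from its highest marker score, to 12.1 in MGJ, and from 2.50, at a clustering resolution of 2, to 360 in MGJ2. It was 3.35 in MGJ2 when sub-clusters set aside for markers of other classes were kept. The call on Timp3 in MGJ2 was lost under 5 alternatives, with a lowest ratio of 1.15 at a limit of 10% mitochondrial UMIs, and the ratio of Mmp9 in MGJ turned to 0.516 when each library was clustered on its own.

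**Figure D2:**
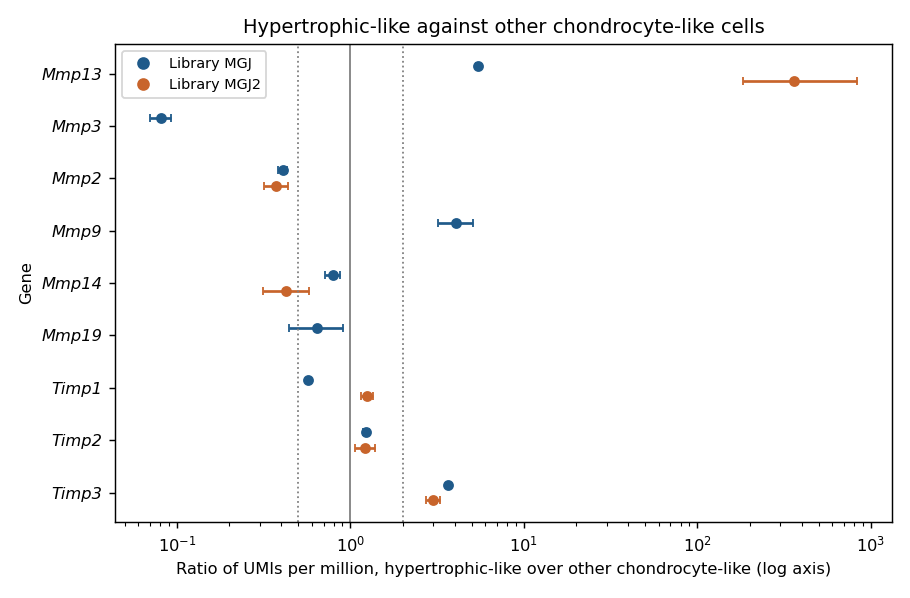
Ratio of CPM in hypertrophic-like over other chondrocyte-like cells (log axis) for each gene with enough UMIs, in MGJ (blue) and MGJ2 (orange); bars are exact binomial 95% intervals of the counts, the solid line marks a ratio of 1 and dotted lines 2-fold. Mmp13 and Timp3 lie right of the dotted lines in each library (5.42 and 360 for Mmp13, 3.67 and 2.99 for Timp3), and Mmp2 lies left of them in each.

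After thinning each cell to 2000 UMIs, Mmp13 had a UMI in 33.9% of hypertrophic-like cells (exact Clopper-Pearson interval 29.99 to 37.9%) and in 11.98% of other chondrocyte-like cells of MGJ, against 3.85% in the low reference. In MGJ2 the shares were 48.8% (37.6 to 60.1%), 2.44% and 0.578%. Without thinning they were 58.8%, 38.9% and 9.20% in MGJ and 66.3%, 9.76% and 1.51% in MGJ2, at median depths of 20672, 21693 and 2769 UMIs and of 27673, 30797 and 3259.5 UMIs. Timp3 had a UMI in 80.4% and 40.3% of the thinned cells of MGJ and in 65.9% and 41.5% of those of MGJ2, against 5.77% and 0.289% in the low reference. The majority of thinned hypertrophic-like cells had Timp3, and less than a majority Mmp13. Among hypertrophic-like cells of MGJ with an Mmp13 UMI, 61.0% also had Timp3, below the 80.4% of all hypertrophic-like cells, and in MGJ2 the values were 55.0% and 65.9%.

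Sub-clusters were then compared across the cells of the chondrocyte clusters and the osteoblast-like cells that were clustered with them. The Col10a1-led sub-cluster held 22.0% of these cells in MGJ and gave 49.5% of their Mmp13 and 48.1% of their Timp3 UMIs. In MGJ2 it held 55.7% of the cells and gave 70.8% of Mmp13 and 76.5% of Timp3. The sub-cluster led by Slurp1, in which lay 65.1% of the UMIs of Penk, an opioid peptide gene, gave 50.9% of Timp1 and 4.09% of Mmp13 in MGJ, with 34.7% of the cells. Osteoblast-like cells, led by Ifitm5, held 2441 CPM of Mmp13 in 104 cells of MGJ and 2831 CPM in 14 cells of MGJ2.

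Apart from these, 49 cells of MGJ formed a sub-cluster led by Saa1, an acute-phase protein gene, and Mmp3 was among its 10 leading genes. Both Mmp13 (4982 CPM, interval 4849 to 5119) and Mmp3 (4906 CPM, interval 4773 to 5041) were higher there than in any other skeletal sub-cluster. With 1.82% of the cells, this sub-cluster gave 54.4% of the Mmp3 and 16.2% of the Mmp13 UMIs, and 91.2% of those of Saa1. Its cells had 12 of 12 chondrocyte markers and Col2a1 at 36998 CPM. Timp1 and Timp3 were not the highest there, at 1746 and 632 CPM, and no cell of MGJ2 fell into it. When these cells were left out, an alternative chosen after their values had been seen, the ratio of Mmp3 in chondrocyte-like over all other cells of MGJ went from 1.19 to 0.503, and that of Mmp13 in hypertrophic-like over other chondrocyte-like cells from 5.42 to 12.1.

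**Figure D3:**
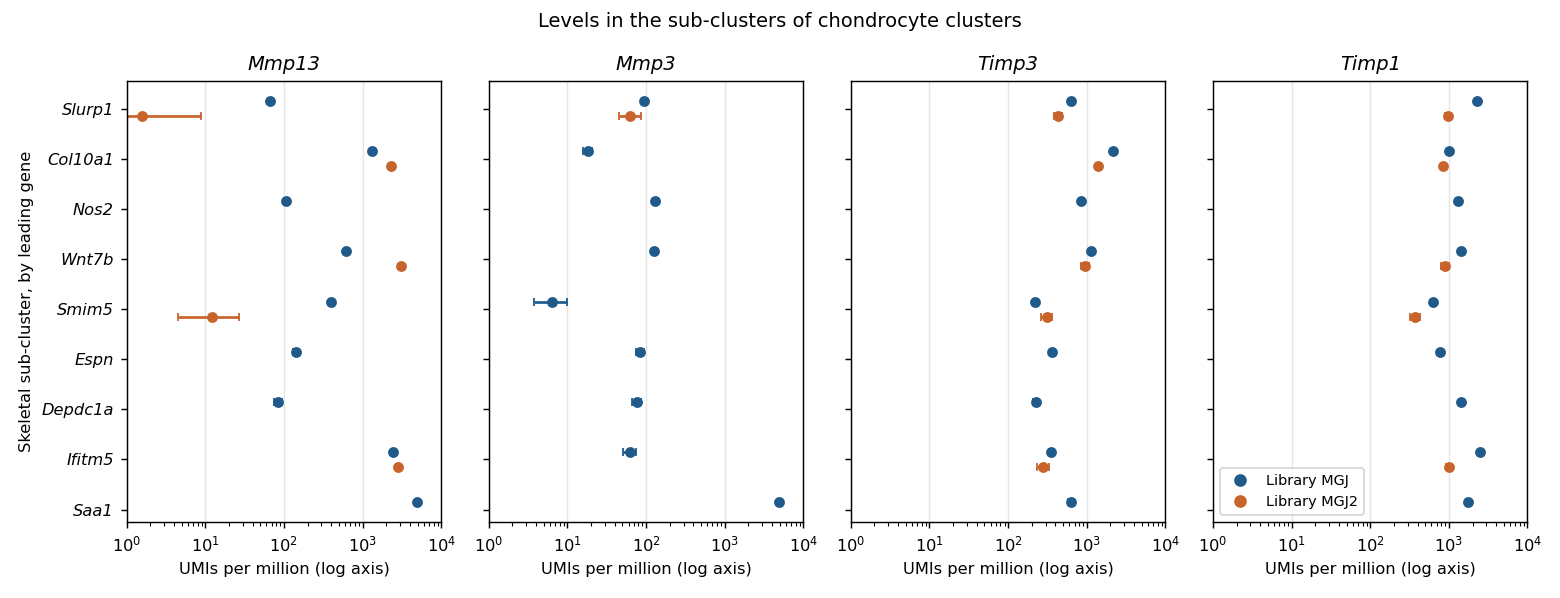
Level in CPM (log axis) of Mmp13, Mmp3, Timp3 and Timp1 in sub-clusters of the chondrocyte clusters, each named by its leading gene, in MGJ (blue) and MGJ2 (orange); bars are exact Poisson 95% intervals, and levels of 0 or sub-clusters of very few cells are not drawn. Mmp13 and Mmp3 peak together in the Saa1-led cells of MGJ (4982 and 4906 CPM), whereas Timp3 peaks in the Col10a1-led cells (2140 and 1409 CPM) and Timp1 varies least.

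A further sub-cluster, led by Wnt7b (219 and 11 cells), was set aside since Ibsp and Phex of the osteoblast list were among its 10 leading genes, as were Col10a1 (7429 and 21944 CPM) and Timp3. Its Mmp13 level was 622 CPM in MGJ and 3048 CPM in MGJ2, and it gave 79.4% of the skeletal Mmp9 UMIs of MGJ2. The neutrophil marker S100a8 stood at 4209 and 11284 CPM in these cells, against 134 and 66.5 CPM in chondrocyte-like cells. Its part in the levels there was not tested.

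Osteoclasts and macrophages arise from a shared lineage, so osteoclast-like cells were set against macrophage- and monocyte-like cells together. In MGJ, Mmp9 was called higher, 1 of 9 members, where 22.2% of 9506 genes were, and Mmp13, Mmp19 and Timp1 lower, 3 of 9, where 15.9% were. In MGJ2, Mmp9, Mmp14 and Timp2 were called higher, 3 of 6 members, where 26.8% of 8795 genes were, and Timp1 lower, 1 of 6, where 22.0% were. The share of members called higher was thus below that of all genes in MGJ and above it in MGJ2. The median log2 ratio of the members with enough UMIs was -0.72 and 0.88, against 0.20 and 0.12 over all genes.

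Mmp9 stood at 1944 CPM in osteoclast-like cells against 38.0 CPM in macrophage- and monocyte-like cells of MGJ, and at 1437 against 2.02 CPM in MGJ2. The ratios were 51.2 (interval 47.2 to 55.6) and 710 (490 to 1071). Expression was again uneven, with 68.8% and 55.4% of the Mmp9 UMIs in the top 10% of osteoclast-like cells and no Mmp9 UMI in 35% and 30% of them. Thinned to 2000 UMIs, 44.1% (interval 33.8 to 54.8%) and 40.7% (28.1 to 54.3%) of osteoclast-like cells had an Mmp9 UMI, against 0 of 104 cells of the low reference in MGJ, which allows a share of up to 2.88%, and 0.578% of 692 in MGJ2. Unthinned, the shares were 65.0% and 70.0%, against 0 of 163 cells and 1.65%, at median depths of 22761.5 and 34310 UMIs and of 2769 and 3259.5 UMIs.

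The other members of this comparison moved less alike. Mmp14 was level in MGJ, at 250 CPM on each side (249.5 and 250.5), a ratio of 0.996 (interval 0.913 to 1.09). In MGJ2 it was 257 against 43.5 CPM, a ratio of 5.91 (5.25 to 6.65), and Timp2 was 311 against 35.9 CPM, a ratio of 8.66. Mmp19 was lower in osteoclast-like cells of MGJ, at 121 against 527 CPM, a ratio of 0.229, and not called in MGJ2, at 38.6 against 71.6 CPM. Timp1 was lower in each, at 34.6 against 132 CPM and at 0.483 CPM (1 UMI) against 20.2 CPM (279 UMIs).

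The second set of this comparison was not alike in the libraries, with 899 macrophage-like cells in MGJ and 27 in MGJ2. Its monocyte-like cells were also largely of different clusters, led by Arg1 in MGJ and by E230029C05Rik in MGJ2. Against macrophage-like cells alone, chosen after seeing the data, the ratios of Mmp14 and Timp2 in MGJ2 turned to 0.972 and 0.851. At a limit of 10% mitochondrial UMIs the osteoclast-like class of MGJ grew to 879 cells and the ratio of Mmp9 fell to 3.86.

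Neutrophils store Mmp9 and Mmp8, a collagenase, in granules that are filled in sequence as the cells mature. Across clusters, Mmp9 was near 0 in myeloid progenitor-like cells led by Mpo, at 2.18 and 1.998 CPM. It stood at 31.2 and 30.6 CPM in neutrophil-like cells led by Camp, a gene of secondary granules (134 and 159 cells), and at 316 and 482 CPM in those led by Ly6g (442 and 348 cells). Mmp8 was at 7.80 and 5.40 CPM in the Camp-led and at 819 and 1410 CPM in the Ly6g-led cells. Mmp9 remained between 130 and 216 CPM in the other 3 neutrophil-like clusters of MGJ with at least 50 cells, led by Cstdc4, Gm39321 and Ifit1, and between 131 and 658 CPM in the other 4 of MGJ2.

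Timp2 showed the same low start, at 21.5 and 8.85 CPM in progenitor-like and 67.2 and 32.1 CPM in Camp-led cells, and was highest in the Cstdc4-led cells of MGJ (332 CPM) and the Retnlg-led cells of MGJ2 (522 CPM). Mmp8 fell to 103 CPM in the Ifit1-led cells of MGJ and to 53.9 CPM in those of MGJ2. A cluster of 2365 cells of MGJ led by the chemokine gene Ccl3 was left unnamed for its low depth, with a median of 1744 UMIs. It held 116 CPM of Mmp9, 66.7 CPM of Mmp8 and 226 CPM of Timp2.

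**Figure D4:**
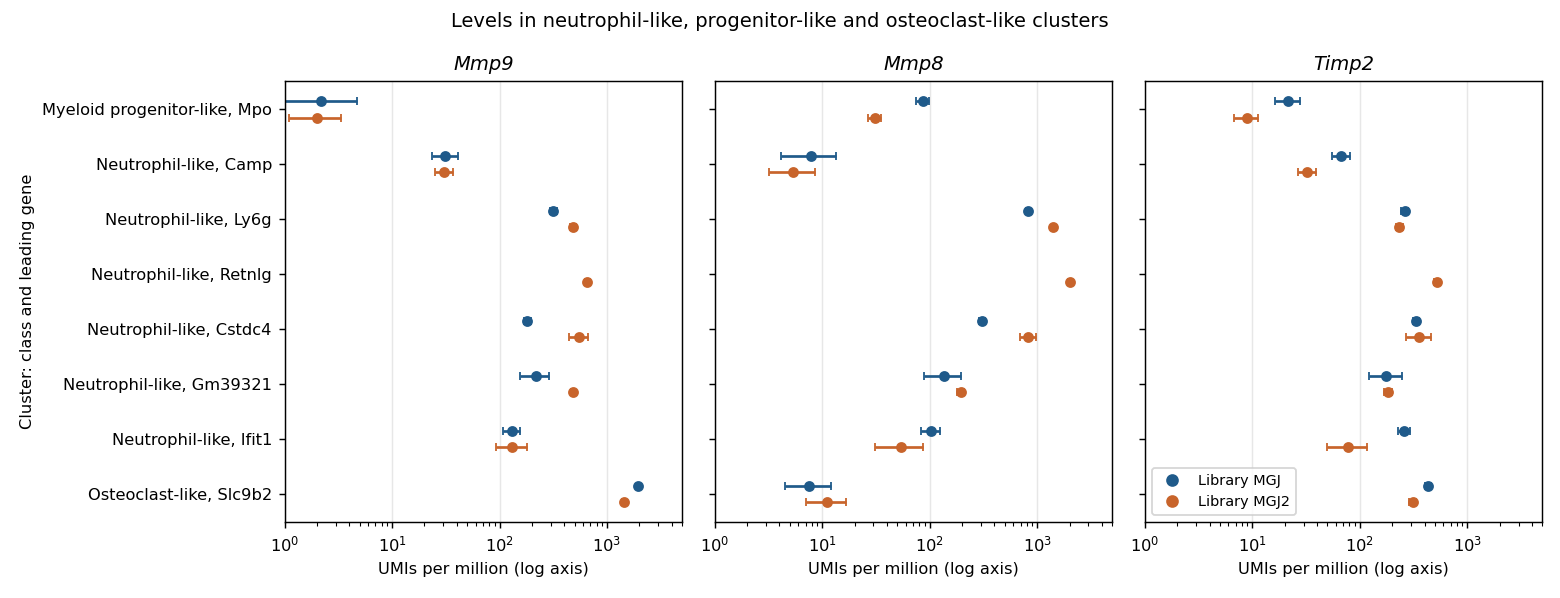
Level in CPM (log axis) of Mmp9, Mmp8 and Timp2 in myeloid progenitor-, neutrophil- and osteoclast-like clusters of at least 50 cells, each with its leading gene, in MGJ (blue) and MGJ2 (orange); bars are exact Poisson 95% intervals. Mmp9 is lowest in the Mpo-led cells (2.18 and 1.998 CPM), intermediate in the Camp-led cells, higher in the Ly6g-led cells (316 and 482 CPM) and highest in osteoclast-like cells, in which Mmp8 stays at 7.59 and 11.1 CPM.

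Fibroblasts and chondrocytes build the soft callus, and MGJ held enough cells of each to compare them. In fibroblast-like cells, 7 of 9 members were called higher than in chondrocyte-like cells, where 19.5% of 12728 genes were, and Timp3 was called lower, 1 of 9, where 16.4% were. The median log2 ratio of the members was 2.43, against 0.09 over all genes. Mmp19 stood at 132 against 4.53 CPM, a ratio of 29.2 (interval 25.3 to 33.7). Its level in chondrocyte-like cells lay below the low reference of MGJ at 26.7 CPM. Mmp14 stood at 357 against 45.8 CPM, a ratio of 7.80, and Mmp2 at 1510 against 217 CPM, a ratio of 6.97 (6.80 to 7.15). All 6 MMPs were called higher, Mmp13 with the smallest ratio, 3.85 (3.78 to 3.92). For Mmp9 the levels were 32.7 against 5.95 CPM, and 80.9% of fibroblast-like cells had no Mmp9 UMI. The neutrophil marker S100a8 stood at 703 against 134 CPM in the same classes. The part of free RNA in the Mmp9 and Mmp19 levels was not tested.

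Among the inhibitors, Timp2 was 1119 against 208 CPM, a ratio of 5.38, Timp1 was 2623 against 1556 CPM, a ratio of 1.69 that was not called, and Timp3 was 212 against 959 CPM, a ratio of 0.221 (interval 0.212 to 0.232). The ratio of Mmp3 ranged from 2.30 to 11.8, that of Mmp19 from 13.1 and that of Mmp9 from 1.54 over the alternatives. Timp3 stayed between 0.204 and 0.314.

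The summed UMIs of the 6 MMPs were set against those of the 3 TIMPs in each class. UMIs are taken at the 3′ end of a transcript and do not grow with its length, but genes can be captured unequally, so the values compare classes and are no balance of proteins. Among the classes of at least 50 cells, MMP UMIs per TIMP UMI were highest in osteoclast-like cells, at 4.99 (interval 4.68 to 5.32) and 5.56 (5.11 to 6.05). Mmp9 made up 82.4% and 82.3% of their MMP UMIs. Smaller classes were left out, among them the 19 marrow stromal cell-like cells of MGJ2, with 5002 CPM of Mmp13 against 344 CPM of Timp2, their highest TIMP. Monocyte-like cells, largely of different clusters in the 2 libraries, followed at 2.95 and 2.59. Macrophage-like cells of MGJ stood at 1.84, dendritic cell-like cells at 1.23 and 0.962 and fibroblast-like cells of MGJ at 1.22. Pre-B cell-like cells of MGJ2 stood at 1.88, with an interval of 0.990 to 3.68. Hypertrophic-like cells stood at 0.441 and 0.939, with 88.1% and 94.1% of their MMP UMIs from Mmp13, and other chondrocyte-like cells at 0.308 and 0.286. Neutrophil-like cells differed between the libraries, at 0.833 and 1.84, as did endothelial cell-like cells, at 0.805 and 0.342. The sums leave out MMPs that are not among the 6. In neutrophil-like cells, Mmp8 alone had 3294 and 7824 UMIs, more than the 2265 and 4256 of the 6 MMPs, so a low value there is no excess of TIMPs.

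**Figure D5:**
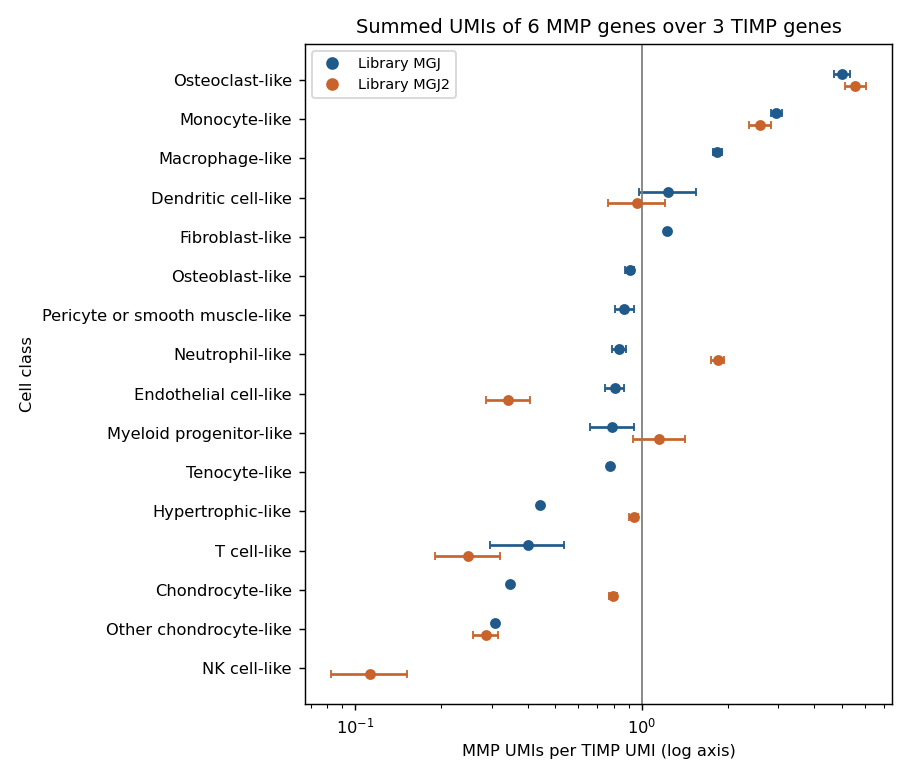
MMP UMIs per TIMP UMI (6 and 3 genes summed, log axis) by cell class in MGJ (blue) and MGJ2 (orange); bars are exact binomial 95% intervals, the line marks a ratio of 1, and classes with few cells or few UMIs of these genes are not drawn. Osteoclast-like cells (4.99 and 5.56) and monocyte-like cells (2.95 and 2.59) lie right of the line, other chondrocyte-like cells (0.308 and 0.286) far left of it.

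The likeness of patterns was described by Pearson's r of log2(CPM + 10) over the 17 classes of MGJ, with the value over the 11 classes found in both libraries given for MGJ2. The classes of a library share its depth and free RNA, and no p-value was taken. In MGJ2, Mmp3 lay above the low reference in 1 of 13 classes, Mmp2 and Mmp9 in 2 and Timp3 in 3. Their r in MGJ2 rests on those classes and is no separate check of the pattern. Of 13134 genes ranked, Timp1 was the gene most like Mmp13 (r = 0.970 and 0.898), and Mmp13 the gene most like Timp1. Fgf18 (0.960 and 0.564), a growth factor gene, and Smo (0.955 and 0.931), the hedgehog signal transducer, came next for Mmp13. Mmp2 was most like Ltbp3 (0.987 and 0.983), Mkx and Mdk, and Timp3 most like Grb10 (0.967 and 0.987), Smtn and Hspg2, the gene of the matrix proteoglycan perlecan.

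Mmp19 was most like Rab7b (0.9303 and 0.881), Psap and Anpep, and Mmp14 most like Anxa5 (0.933 and 0.745), Vwa5a and Slc39a1. Mmp3 was most like Angpt4 (0.970 and 0.865), Gpc3 and Steap1, but its r in MGJ2 rests on chondrocyte-like cells alone. Timp2 was most like Igf2r (0.888 and 0.805), Fosb and Tnfrsf12a. Mmp9 had the weakest partner, 2500002B13Rik (0.814 and 0.647), followed by Pwwp2b and Cdk18. Between members, Mmp9 had r of at most 0.418 in MGJ, with Timp2, and 0.530 in MGJ2, also with Timp2.

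Genes that work with the members were followed in 4 lists. Of 17 other MMP genes, 16 were in the count tables, Mmp1b and Mmp7 had no UMI in either library, and 7 and 4 reached 50 UMIs in their highest class. Mmp8 was highest in neutrophil-like cells (377 and 686 CPM) and Mmp25, a membrane-anchored MMP of leukocytes, in dendritic cell-like cells (88.2 and 146 CPM). In MGJ, Mmp12, the macrophage elastase, was highest in monocyte-like cells (300.4 CPM), Mmp10, a second stromelysin, in fibroblast-like cells (80.5 CPM), and Mmp15 in endothelial cell-like cells (35.2 CPM). In fibroblast-like over chondrocyte-like cells, 7 of 9 other MMPs with enough UMIs were called higher, where 19.5% of all genes were. Among them were Mmp12 (111.6 against 5.22 CPM) and Mmp10 (80.5 against 3.999 CPM). Mmp28 was called lower, where 16.4% of genes were. In osteoclast-like over macrophage- and monocyte-like cells, none was called higher, where 22.2% and 26.8% of all genes were. Called lower were 4 of 4 and 2 of 3, where 15.9% and 22.0% of genes were.

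Of 4 other inhibitors, 2 reached 50 UMIs in each library. In chondrocyte-like cells 1 of 2 in MGJ and 2 of 2 in MGJ2 were called higher than in all other cells, where 12.7% and 19.7% of all genes were. None was called lower, where 26.1% and 33.2% of genes were. Reck, a membrane-anchored inhibitor, was highest in chondrocyte-like cells (19.6 and 44.4 CPM), with ratios to all other cells of 3.11 and 7.86. Tfpi2 was highest in fibroblast-like cells of MGJ (110 CPM) and endothelial cell-like cells of MGJ2 (372 CPM). Of 7 genes of the activation of MMPs, 6 and 5 reached 50 UMIs, and in chondrocyte-like cells 1 of 6 was called higher and 1 lower in MGJ, 3 of 6 higher and 1 lower in MGJ2. The shares of all genes called are those just given, and the counts of 1 of 6 were near or below them. Plaur, the urokinase receptor, was highest in neutrophil-like cells (911 and 735 CPM). Plau, the gene of urokinase, was called higher in chondrocyte-like cells, with ratios of 2.49 and 2.83, and its ratio of hypertrophic-like over the other cells of the class was 0.332 in MGJ and 3.81 in MGJ2. Serpine2 was called higher in hypertrophic-like cells in both, at 2.19 and 2.49.

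All 5 genes of surface partners and clearance reached 50 UMIs, and in chondrocyte-like cells 1 was called higher and 3 lower in MGJ, 3 higher and 2 lower in MGJ2. Of all genes, 12.7% were called higher and 26.1% lower in MGJ, and 19.7% and 33.2% in MGJ2. Bsg, the gene of basigin, an inducer of MMPs, was highest in chondrocyte-like cells (1561 and 586 CPM), with ratios to all other cells of 3.06 and 4.61. Cd44, a hyaluronan receptor that can hold MMPs at the surface, was highest in monocyte-like cells (1316 and 2241 CPM), and Lcn2, whose product binds Mmp9, in neutrophil-like cells (9251 and 6018 CPM). Lrp1, a receptor that clears MMPs and TIMPs, was highest in fibroblast-like cells of MGJ (575 CPM) and monocyte-like cells of MGJ2 (229 CPM), and Thbs2, which binds Mmp2, in tenocyte-like (981 CPM) and chondrocyte-like cells (82.4 CPM).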

How the data were processed

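For each library of dissociated callus (10x Genomics 3′ chemistry, version 3) the authors deposited a filtered matrix of raw UMI counts. Its header names Cell Ranger 4.0.0, and the submitters' processing notes name GRCm38. The annotation release was not given in the sources used here. Totals were 135304426 UMIs in 14295 barcodes (MGJ) and 61130834 in 8009 (MGJ2).

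Barcodes with fewer than 200 genes (371 and 70) or more than 20% mitochondrial UMIs (464 and 133) were removed, and so were 513 and 238 barcodes with a Scrublet score above 0.25. This threshold was set after the automatic one gave 0 calls in MGJ. The calls made up 3.81% and 3.05% of barcodes tested, below the expected 10.8% and 6.24%, so doublets remain. Both libraries were clustered together in scanpy 1.11.5 (2000 variable genes without the members and their pathway lists, 30 principal components, 15 neighbours, Leiden resolution 1, and 0.5 for sub-clusters; leidenalg 0.10.2, igraph 0.11.9, scikit-learn 1.9.0). Clusters were named from 27 marker lists, and 2729 and 380 cells were left unnamed. A class with fewer than 3 of its markers in at least 10% of its cells in a library was also left unnamed there, a rule set after the data were seen. Both monocyte-like clusters, 2 of 6 neutrophil-like clusters, 1 chondrocyte-like cluster and 6 of 7 chondrocyte-like sub-clusters, the Saa1-led cells among them, had none of their own markers among their 10 leading genes.

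Counts were summed over the cells of a class in a library, with exact Poisson intervals for levels, exact conditional binomial intervals for ratios and Clopper-Pearson intervals for shares, all at 95% and for counting error only. PCR duplicates were removed by UMI, and free RNA was not subtracted. The limit for 0 counts was 3 counts. The tables were made with pandas 2.3.3, scipy 1.17.1 and numpy 2.4.6 under Python 3.11.15, the plots with matplotlib 3.10.9. Gene positions came from GENCODE on GRCm38. The members, lists, markers and comparisons were chosen with earlier results of these data known. All 9 members are named, with genes of the 4 pathway lists that reached 50 UMIs in a class, the 3 genes most like each member in MGJ, and markers. No test, SD or p-value was computed, since each library is 1 sample.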

Additional observations from a re-analysis of the deposited data

Results flagged for a closer look

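The barcodes removed by the filters on genes, mitochondrial UMIs and doublets were outside all comparisons, and members were counted in them above the limit that 0 counts allow (0.308 CPM in MGJ, 0.901 CPM in MGJ2). In the 1348 removed barcodes of MGJ, the levels were 627 CPM for Mmp13, 214 CPM for Mmp3, 431 CPM for Mmp2, 49.8 CPM for Mmp9, 193 CPM for Mmp14 and 111 CPM for Mmp19. The inhibitors stood at 964 CPM for Timp1, 480 CPM for Timp2 and 331 CPM for Timp3. In the kept cells of this library the levels were 551 CPM for Mmp13, 75.1 CPM for Mmp9, 1179 CPM for Timp1 and 486 CPM for Timp3. In the 441 removed barcodes of MGJ2, Mmp9 stood at 313 CPM, against 134 CPM in kept cells, and Mmp13 at 22.8 CPM, against 183 CPM. The others were 4.51 CPM for Mmp2, 37.9 CPM for Mmp14, 14.4 CPM for Mmp19, 14.1 CPM for Timp1, 80.8 CPM for Timp2 and 20.7 CPM for Timp3, and Mmp3 had no UMI. No group held enough samples to look for one far from the others.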

How the results depend on the processing

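Of 158 member counts recomputed under other settings, 140 stayed within 1.5 times their value, but of 697 ratios 350 stayed within their counting interval, 343 left it and 4 changed direction after having passed 2-fold, and 339 of 648 shares left theirs. With each cell named by its highest marker score, Mmp13 in osteoclast-like over macrophage- and monocyte-like cells of MGJ turned to 1.46, members called in that comparison went to 2 higher and 0 lower in MGJ and 2 lower in MGJ2, and those called higher in hypertrophic-like cells to 1 in each library. With each library clustered on its own, Mmp9 in hypertrophic-like cells of MGJ turned to 0.516, and calls there went to 4 lower in MGJ and 1 higher in MGJ2, with 2 lower in osteoclast-like cells of MGJ2. Keeping doublet calls gave 4 lower and 1 higher in the hypertrophic comparison of MGJ and MGJ2. A limit of 10% mitochondrial UMIs gave 1 lower in osteoclast-like cells of MGJ and 1 higher in hypertrophic-like cells of MGJ2, as did allowing the members among the clustering genes for the latter (1 higher). A minimum of 500 genes gave 2 lower in osteoclast-like cells of MGJ2. Weighting every cell equally gave 4 higher and 3 lower in chondrocyte-like and 5 lower in osteoclast-like cells of MGJ. Against macrophage-like cells alone, an alternative added after seeing the data, Mmp14 (0.972) and Timp2 (0.851) of MGJ2 turned, leaving 1 called higher. The cause of these changes was not tested. No paired analysis was possible because each library is 1 sample without a group, and for the same reason no replicate could be left out. Classes of few cells, such as the 41 other chondrocyte-like cells and the 27 macrophage-like cells of MGJ2, limit the precision there.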

Other observations

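A cluster that took the name of tenocytes in MGJ held 50 cells of MGJ2, in which 2 of 6 tenocyte markers were detected, so it was left unnamed there. Its median depth was 1658.5 UMIs. Mmp13 stood at 3276 CPM (1180 UMIs), with 1171 UMIs in 5 cells and 1051 in 1 of them. Timp2 stood at 949 CPM (interval 851 to 1056), Mmp2 at 913 CPM (817 to 1018), Timp3 at 605 CPM, Mmp14 at 536 CPM and Timp1 at 403 CPM, and Mmp3 had no UMI.

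In chondrocyte-like cells of MGJ thinned to 2000 UMIs, 37.5% of the 176 cells with an Mmp3 UMI also had Mmp13, against 17.4% of all 2321 cells. In tenocyte-like cells the values were 60.4% of 53 cells and 27.7%. For Mmp2 and its membrane activator Mmp14, the values were 10.8% of 740 chondrocyte-like cells and 8.36% of all, and 48.6% of 490 fibroblast-like cells and 48.9% of all. Cells of a library are not replicates, and no test was made.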
